A study of Mus musculus with 6 samples.

Results

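The interleukin-1 (IL-1) family genes and the receptor for interleukin-33 (IL-33) were followed across the immune cells of mouse brains bearing human gliomas. The set held 10 of the 31053 genes in the count matrix, chosen by symbol: Il33, the receptor genes Il1rl1 and Il1rap, the ligands Il1a, Il1b and Il18, the antagonists Il1rn, Il1r2 and Il18bp, and the inflammasome sensor Nlrp3. All 10 were found. The question was which groups of cells held mRNA for sensing IL-33, and which held mRNA for the other cytokines of the family and their inhibitors.

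Female SCID mice, which lack working T and B cells, received 50000 U87 cells, a human glioma line, in the brain. In 3 mice the U87 cells expressed IL-33 and were collected 3 weeks later, and in 3 mice they carried the pcDNA vector and were collected 6 weeks later. The labels give an age of 8 weeks at implantation in the protocol and a range in the sample fields. CD45+ cells (CD45 marks blood-derived cells and microglia) were sorted from the tumor-bearing hemisphere and profiled in droplets, where a barcode marks each cell and a unique molecular identifier (UMI) each captured transcript. Both groups share the strain, the sex and the tumor line, and they differ in the time after implantation as well as in IL-33. The deposited matrix pools the 6 libraries. Its barcodes end in a suffix from 1 to 6. Groups were taken from the labels alone, which tie no suffix to a mouse, so IL33 and pcDNA mice were not compared here and the matrix was treated as 1 sample. No test between groups was run. Intervals are 95% intervals for counting error only, and the spread over suffixes is given beside them. Reads were aligned to the mouse genome, so the human IL33 mRNA of the tumor cells was not counted.

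IL-33 is a nuclear cytokine that is set free when cells are damaged. It binds ST2, encoded by Il1rl1, which then pairs with the shared accessory chain encoded by Il1rap and signals through Myd88. Group 2 innate lymphoid cells (ILC2), mast cells and basophils are known to carry ST2. IL-1α (Il1a) and IL-1β (Il1b) act on another receptor that uses the same accessory chain, and IL-18 (Il18) acts on a receptor found on NK and T cells. Il1rn encodes the receptor antagonist, Il1r2 a decoy receptor and Il18bp a soluble IL-18 trap. Nlrp3 encodes the sensor of the inflammasome that cleaves the precursors of IL-1β and IL-18.

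The sequences of the promoters of Il1a, Il1b and Nlrp3 are shown because these 3 genes were abundant in microglia and were higher in the same microglia, as described further on. Each run covers the bases from 250 to 11 upstream of the RefSeq start (mouse build GRCm38.p6, the same assembly as mm10) and is read along the gene's strand. In the first pair of runs the capitals mark TATAAA, the core of a TATA box. In the third they mark a match on the other strand to a strict form of the NF-κB motif.
Il1a, chr2:129309983-129310222, minus strand: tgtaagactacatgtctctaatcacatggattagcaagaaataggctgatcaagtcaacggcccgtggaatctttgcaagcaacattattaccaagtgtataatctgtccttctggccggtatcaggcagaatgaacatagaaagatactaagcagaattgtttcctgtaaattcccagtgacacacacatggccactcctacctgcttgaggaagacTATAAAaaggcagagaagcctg
Il1b, chr2:129371150-129371389, minus strand: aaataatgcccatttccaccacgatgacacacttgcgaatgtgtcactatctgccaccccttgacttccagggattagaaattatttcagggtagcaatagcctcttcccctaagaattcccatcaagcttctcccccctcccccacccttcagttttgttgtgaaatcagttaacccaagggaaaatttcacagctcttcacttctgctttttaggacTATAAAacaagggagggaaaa
Nlrp3, chr11:59541319-59541558, plus strand: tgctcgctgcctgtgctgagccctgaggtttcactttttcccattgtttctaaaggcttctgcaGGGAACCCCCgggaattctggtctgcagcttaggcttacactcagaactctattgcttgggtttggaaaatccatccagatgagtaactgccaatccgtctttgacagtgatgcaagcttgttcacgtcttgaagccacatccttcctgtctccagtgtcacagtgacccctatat
The neighbouring ligand genes Il1a and Il1b each had TATAAA close to the start, at 32 and 31 bases upstream. TATAAA, searched on both strands of the 250 bases before the start, was found in 12.4% of 32851 mouse promoters. Il1a also held TGANTCA, the AP-1 motif, 12 bases upstream, a motif found in 6.75% of promoters. Il1b held TTNNGNAAT, the C/EBP motif, 91 bases upstream, found in 10.2%, and on the other strand GGAAGT, an ETS motif, 187 bases upstream, found in 19.7%. The strict NF-κB form was found in 4.11% of promoters, and among the 10 genes it was present at a start of Nlrp3, 186 bases upstream, and at an inner start of Il1rn. A looser NF-κB form, which contains it, was found in 45.8%. These matches are letters in a window and not tested sites, and no binding was measured.

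In the annotation (GENCODE, GRCm38) the members are protein-coding genes on 7 chromosomes. Il1a (ENSMUSG00000027399) spans chr2:129299610-129309972 and Il1b (ENSMUSG00000027398) chr2:129364570-129371139, both on the minus strand, and Il1rn (ENSMUSG00000026981) spans chr2:24336853-24351494. Il1rl1 (ENSMUSG00000026069) spans chr1:40429570-40465415 and Il1r2 (ENSMUSG00000026073) chr1:40074079-40125231. Il1rap (ENSMUSG00000022514) spans chr16:26581704-26730117, and Il33 (ENSMUSG00000024810) chr19:29925114-29960718. Il18 (ENSMUSG00000039217) spans chr9:50554827-50581840, Il18bp (ENSMUSG00000070427) chr7:102014885-102018690 and Nlrp3 (ENSMUSG00000032691) chr11:59541568-59566956. No member overlaps another measured gene on its own strand, and the chemistry keeps strand. Counts were taken at the 3′ end of transcripts and summed by gene. The matrix gives a single count for Il1rl1, so the soluble and the membrane form of ST2, both made from it, were not told apart.

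Of 40411 barcodes, 38751 passed the filters of the study, with 2739 to 10044 per suffix and median UMIs of 1523 to 3484. Libraries shared barcodes: 14489 of the passing barcodes had a sequence that also stood in another suffix. Between 509 and 3428 sequences were shared by each pair of suffixes, and their total UMIs in the 2 suffixes went together (Spearman's rho 0.80 to 0.97 over the shared sequences, a description). The suffixes were therefore not treated as 6 independent libraries, and why they share barcodes was not tested. Results are given for all passing cells and repeated for the 24262 cells with a barcode sequence of their own, a repeat chosen after the data were seen. Passing shared barcodes had a median of 927 UMIs against 3117 in the others, so the repeat also keeps deeper cells.

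Cells were grouped by marker genes, with at least 3 genes of a list detected. The microglia gate (Tmem119, P2ry12 and 6 others) took 34356 cells, or 88.7%. The monocyte gate took 260 cells, mostly in suffixes 4, 5 and 6 with 98, 39 and 101 cells, and the granulocyte gate took 67. The NK cell gate took 146, and the choroid plexus gate, epithelium that is CD45-negative, took 193. Smaller gates held 22 ILC2, 11 basophils or mast cells, 8 dendritic cells, 7 border macrophages, 3 T cells and 3 B cells, for which counts are given and, for Il1rl1 in ILC2, a share, and 3646 cells were ungated. Gates outside microglia also had an upper limit on UMIs of the microglia list, and 29 cells at or over it were put in no gate. Low levels of microglial genes in those gates are therefore set in part by this limit. In each gate of at least 50 cells, 4 of 4 check genes that the gate did not use were higher than in the reference cells. Shared barcodes made up 86.8% of the ungated cells, 32.7% of microglia, 28.0% of choroid plexus cells, 19.4% of granulocytes, 5.38% of monocytes and 4.11% of NK cells.

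Mouse Il33 was almost absent from the sorted cells. It had 2 UMIs in 38751 cells, 1 in microglia and 1 in an ungated cell, or 0.021 CPM (counts per 1000000, the UMIs of a gene scaled to 1000000 UMIs of the group; 0.0025 to 0.076). The monocyte, granulocyte, NK and choroid plexus gates had no Il33 UMI, which allows up to 2.52, 25.9, 9.06 and 7.08 CPM. The sort kept CD45+ cells, and the brain cells known to hold IL-33, oligodendrocytes and astrocytes, gave 0 gated cells each. Both Il33 UMIs lay in barcodes with a sequence of their own.

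The ST2 gene Il1rl1 stood out in ILC2 and was sparse in microglia. In the ILC2 gate (median 3499.5 UMIs), 7 of 22 cells held 8 Il1rl1 UMIs (31.8% of cells, exact binomial interval 13.9% to 54.9%), where the microglial level over the same 77049 UMIs would give 0.14. These cells came from suffix 2 with 3, suffix 4 with 1 and suffix 6 with 3. Without suffix 2 the share was 21.1%. Each of the 7 had a barcode sequence of its own, so that the share was 33.3% of 21 cells among such barcodes. Thinned to 500 UMIs per cell, 0 of the 22 cells kept an Il1rl1 UMI, and 1 of 21 (4.76%) did in the draw without shared barcodes, so few of these UMIs could be seen at that depth. Of 11 basophils or mast cells, 1 held a single UMI. The NK cells (median 1931 UMIs) gave 0 of 146, which allows up to 2.05% of cells with a UMI at that depth and sets no limit on cells that express the gene.

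Most Il1rl1 UMIs were nevertheless in the microglia gate, which held most cells. There, 163 of the 190 UMIs fell on 159 of 34356 cells (0.463%, at a median of 2618 UMIs), and after thinning 0.093% of the cells held one. The level was 1.82 CPM (1.55 to 2.12), and 1.82 (1.53 to 2.15) among barcodes with their own sequence. By suffix, from 1 to 6, it was 1.31, 2.29, 1.40, 1.45, 2.50 and 1.71 CPM. Among microglia 4 cells held 2 UMIs and none more. The gates with no Il1rl1 UMI allow up to 9.06 CPM in NK cells and 7.08 in choroid plexus, both above the microglial level, so these counts could not separate microglial Il1rl1 from free RNA. Ungated cells held 16 UMIs in 12 cells, at 4.48 CPM (2.56 to 7.28), which was 2.46 times the microglial level (1.38 to 4.12). Among ungated cells with none of the microglia list genes, 6 UMIs in 316 cells gave 16.3 CPM. The 480 ungated cells without shared barcodes held 9 UMIs in 5 cells, at 9.91 CPM (4.53 to 18.8).

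The accessory chain gene Il1rap was also sparse, and was densest in granulocytes. It had 281 UMIs in all, 245 of them in microglia at 2.74 CPM (2.40 to 3.10), with suffixes from 2.28 to 3.86. Monocytes held 10 UMIs in 10 cells at 8.41 CPM, 3.08 times microglia (1.46 to 5.75) and 3.17 times (1.497 to 5.94) among barcodes with their own sequence. In monocytes the 3 suffixes with at least 20 cells gave 7.09, 6.05 and 12.0 CPM, each above microglia of the same suffix. Among barcodes with their own sequence these values rested on 3, 1 and 6 UMIs. In suffix 5 that 1 UMI gave 7.07 CPM against 2.43 in microglia, so any UMI there would have stood above. Granulocytes held 8 UMIs in 8 of 67 cells, at 69.0 CPM (29.8 to 135.9), 25.2 times microglia (10.8 to 50.5), 14.0 times without suffix 4 and 29.0 times (12.4 to 58.2) without shared barcodes. No ILC2 held an Il1rap UMI, where the microglial level would give 0.21. A cell with both Il1rl1 and Il1rap was found 2 times in 38751, 1 of them in microglia.

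Il1a was densest in microglia, at 929.5 CPM (923 to 936), in 22119 of 34356 cells. From suffix 1 to 6 it was 1005, 796, 872, 857, 960.0 and 1122. The spread over suffixes was far wider than the counting interval, and no suffix fell below 796. Among barcodes with their own sequence the level was 1014, with suffixes from 883 to 1177. Microglia held 98.2% of the 84806 Il1a UMIs.

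**Figure D1:**
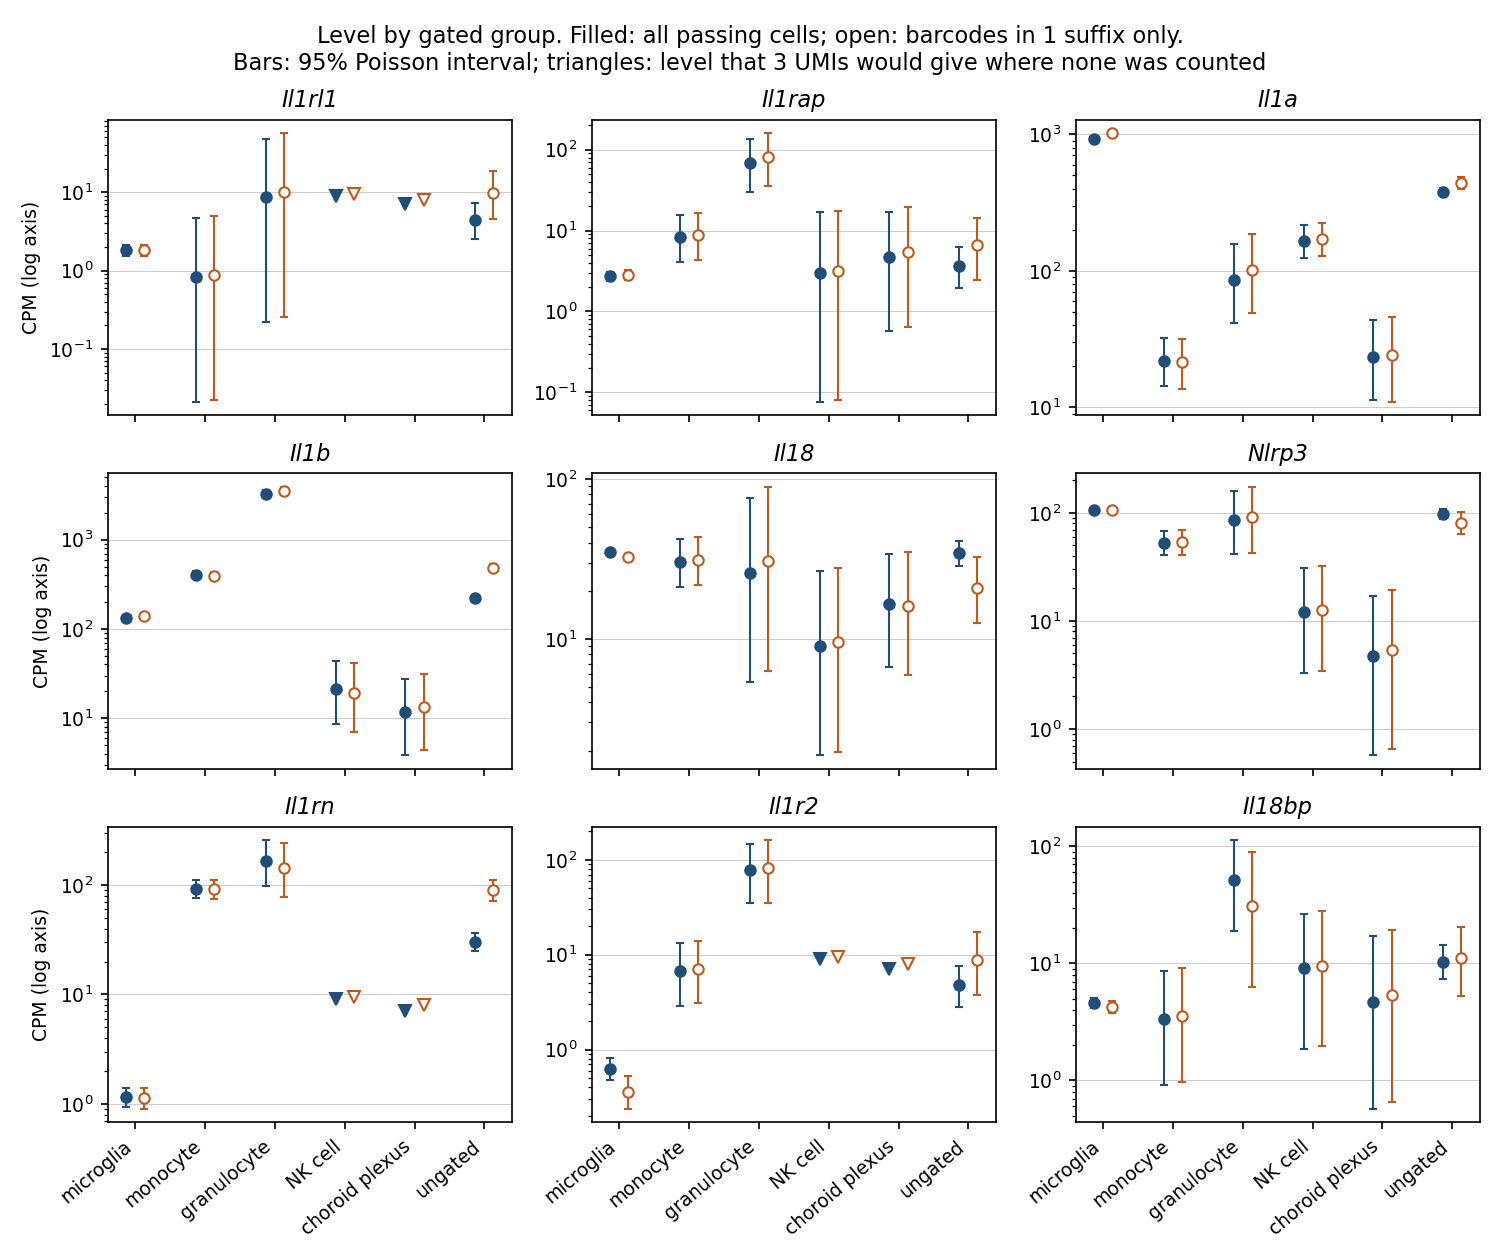
CPM on a log axis for 9 of the genes in microglia, monocytes, granulocytes, NK cells, choroid plexus and ungated cells, for all passing cells (filled) and for barcodes found in 1 suffix (open), with 95% Poisson intervals and, as triangles, the level that 3 UMIs would give where none was counted. Il1a is highest in microglia at 929.5, while Il1b is highest in granulocytes at 3284 and Il1rn in granulocytes at 164 and monocytes at 91.7.

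In the gates outside microglia Il1a was low. These gates left out cells at or over the limit on microglia list UMIs, which by itself can lower microglial transcripts. The 29 cells left out in this way held 79 Il1a UMIs in 23 cells, among 132049 UMIs in all. The ratios below therefore hold only for cells under that limit, and its part in them was not tested. Monocytes held 26 UMIs in 260 cells, at 21.9 CPM, a ratio of 0.024 to microglia (0.015 to 0.034), and the 3 suffixes gave 26.0, 18.2 and 17.9. Granulocytes were at 86.2 (ratio 0.093, 0.044 to 0.171), choroid plexus cells at 23.6 (0.025, 0.012 to 0.047) and NK cells at 166 (0.179, 0.135 to 0.233), with no suffix value above that of microglia. Ratios among barcodes with their own sequence were 0.021, 0.101, 0.024 and 0.169. The part of free microglial RNA in these Il1a counts was not tested.

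Il1b was carried by granulocytes and monocytes at a higher level than by microglia. Granulocytes held 381 UMIs in 37 of 67 cells, at 3284 CPM (2962 to 3631) against 133 (131 to 135) in microglia, a ratio of 24.7 (22.3 to 27.4). Thinned to 500 UMIs per cell, 50.7% of granulocytes and 4.44% of microglia held Il1b, and NK cells were at 2.05%. Each suffix had at most 19 granulocytes, so no suffix value is given. Monocytes were at 405 CPM (369 to 442), 3.04 times microglia (2.77 to 3.34), with 444, 321 and 353 in suffixes 4, 5 and 6, above microglia in 3 of 3. Among barcodes with their own sequence the ratios were 25.6 in granulocytes and 2.82 in monocytes. Taken as the median of the suffix ratios, that of monocytes was 1.80, and with cells thinned to 1000 UMIs before gating it was 5.23. The 8 dendritic cells held 46 Il1b UMIs in 6 cells, where the microglial level would give 6.32.

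NK cells (21.1 CPM, 0.159 times microglia) and choroid plexus cells (11.8, 0.089 times) had little Il1b, with ratios of 0.137 and 0.097 without shared barcodes. Both gates held only cells under the limit on microglia list UMIs. In microglia themselves Il1b varied over suffixes more than Il1a, Il18 or Nlrp3, with 123, 81.4, 71.8, 154, 185 and 196 CPM from suffix 1 to 6. Some microglia were strong carriers, with up to 53 UMIs in a cell, while 29435 of 34356 had none.

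**Figure D2:**
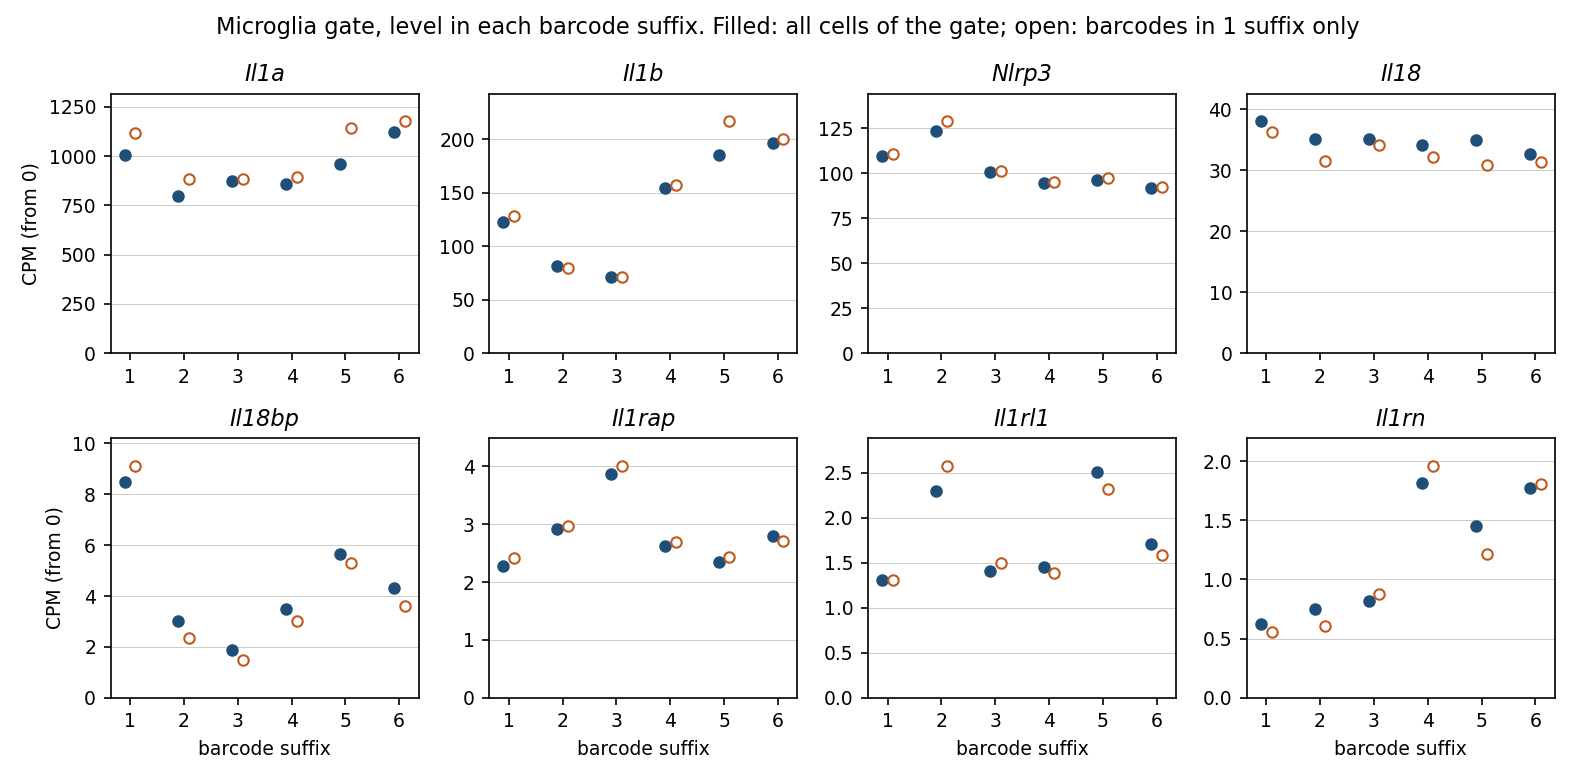
Level of 8 genes in the microglia gate for each barcode suffix, in CPM from 0, for all cells of the gate (filled) and for barcodes found in 1 suffix (open). Il1b ran from 71.8 to 196 and Il18bp from 1.87 to 8.48, while Il18 stayed between 32.6 and 38.0. The suffixes were not assigned to mice or groups here.

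Il18 was found in microglia and in monocytes. Microglia were at 35.1 CPM (33.9 to 36.3), with suffixes from 32.6 to 38.0, and monocytes at 30.3 (21.2 to 41.9), a ratio of 0.863 (0.603 to 1.20). The values of 28.4, 12.1 and 31.9 in monocytes of suffixes 4, 5 and 6 lay below microglia of the same suffix. The interval of the ratio includes 1. With barcodes of 1 suffix only the ratio was 0.955, with 1 of 3 suffixes above microglia. NK cells held 3 Il18 UMIs (9.06 CPM, ratio 0.258, 0.053 to 0.755) and choroid plexus cells 7 (16.5, ratio 0.471, 0.189 to 0.971). Among barcodes with their own sequence the microglial level was 32.7, and the ratios of NK and choroid plexus cells were 0.291 (0.060 to 0.851) and 0.491 (0.180 to 1.07).

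The antagonist gene Il1rn was concentrated outside microglia. Microglia, 88.7% of cells, held 104 of its 343 UMIs (1.16 CPM, 0.949 to 1.41), whereas the 260 monocytes held 109 at 91.7 CPM (75.3 to 110.6). This was 79.0 times microglia (59.8 to 104), and 81.4 times among barcodes with their own sequence. By suffix, monocytes were at 96.9, 24.2 and 105.6 CPM in suffixes 4, 5 and 6, against 1.82, 1.45 and 1.77 in microglia. Without shared barcodes monocytes of suffix 5 were at 14.1 CPM, from 2 UMIs in 34 cells. Granulocytes held 19 UMIs in 10 cells, at 164 CPM (98.6 to 256), 141 times microglia (81.6 to 231). Without suffix 4 this ratio was 74.3, and without shared barcodes 127 (66.4 to 224). NK and choroid plexus cells held none, which allows up to 9.06 and 7.08 CPM.

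The ungated cells held nearly as many Il1rn UMIs as the monocytes, 108 in 34 cells, of which 1 cell held 39. At 30.3 CPM they were 26.1 times microglia (19.7 to 34.5), and among barcodes with their own sequence 79.9 times (58.3 to 110). Over suffixes the ungated level ran from 3.95 to 62.0 CPM, above microglia in 6 of 6. Without shared barcodes it ran from 0 to 622 CPM, above microglia in 5 of 6, and suffix 1 held 41 of the 82 UMIs. The pooled ratios thus lean on few cells, which their intervals do not cover. In a look taken after these values were seen, the 34 cells had 908 Ccr2 CPM against 110.0 in the other ungated cells. Tgfbi was at 1897 against 108, and Ms4a7 at 540.4 against 33.6. Ccr2 and Tgfbi are genes of monocytes and monocyte-derived macrophages. Ms4a7 is in the border macrophage list, and was at 844 CPM in the 7 cells of that gate. These genes therefore place the 34 cells in neither kind. For the microglial gene Tmem119 the 34 cells had 184 against 1363. H2-Aa, an MHC class II gene, was at 6760.5 against 637, and Arg1, arginase, at 161 (from 14 UMIs) against 2.59. The direction was the same for each of these 6 genes among the 21 such cells with a barcode sequence of their own. The 34 cells had a median of 2025.5 UMIs against 764.5 in the other ungated cells, and the part of depth was not tested. These are counts over cells picked for Il1rn and carry no test.

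The decoy receptor gene Il1r2 was rare, with 96 UMIs in 81 cells. Microglia were at 0.625 CPM (0.472 to 0.812), granulocytes at 77.6 from 9 UMIs (35.5 to 147) and monocytes at 6.73 from 8 UMIs (2.90 to 13.3). Ungated cells were at 4.76, 7.62 times microglia (4.15 to 13.3), and 24.6 times (9.64 to 55.6) without shared barcodes, from 8 UMIs. In cells with their own barcode sequence, the microglial level was 0.36, from 27 of the 56 microglial UMIs. The IL-18 trap gene Il18bp was at 4.62 CPM in microglia (4.19 to 5.09), with suffixes from 1.87 to 8.48. Granulocytes held 6 UMIs (51.7, 19.0 to 113), and monocytes 4 (3.36, 0.917 to 8.61). Without shared barcodes microglia were at 4.25 and granulocytes held 3.

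The inflammasome sensor gene Nlrp3 was held by microglia of every suffix and was lower in monocytes. Microglia were at 105 CPM (103 to 107), with 109.5, 123, 100.3, 94.5, 96.4 and 91.8 from suffix 1 to 6. Monocytes were at 53.0 (40.7 to 67.8), a ratio of 0.504 (0.387 to 0.645), and lay below microglia in 3 of 3 suffixes with 66.2, 42.4 and 25.9. Granulocytes at 86.2 (41.3 to 158.5) could not be told from microglia by counting error, with a ratio of 0.820 (0.393 to 1.51). NK cells (12.1, ratio 0.115) and choroid plexus cells (4.72, ratio 0.045) were low. As for Il1a, the ratios of these gates hold only for cells under the limit on microglia list UMIs. The ratios without shared barcodes were 0.502 in monocytes, 0.861 in granulocytes, 0.119 in NK cells and 0.0503 in choroid plexus cells. Of 11 basophils or mast cells, 7 held 9 Nlrp3 UMIs, where the microglial level would give 1.84.

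The counts of members past a 2-fold difference can be read against all genes. A gene was counted if it had, or at the reference level would have had, at least 10 UMIs. Of 6 members so counted in monocytes, 3 were at least 2-fold above microglia (Il1rap, Il1b and Il1rn) and 1 was below (Il1a), where 18.8% of all genes were above and 21.3% below. Il1rap and Il1rn reached 10 UMIs only through the monocytes, so they could be counted only as higher, and the count of 3 is no support for a direction. In granulocytes 2 of 4 were above (Il1b and Il1rn) and 1 below (Il1a), with 23.5% and 36% of all genes, and Il1rn was counted only through the granulocytes. In NK cells 4 of 4 were below, with 17.5% of all genes below and 24.9% above, and in choroid plexus 4 of 4, with 44.7% below and 22.9% above. In both gates Il1b, Il18 and Nlrp3 reached 10 UMIs only at the microglial level. They could be counted there only as lower, and these counts are no support for a direction. In ungated cells 4 of 9 were above (Il1rl1, Il1rn, Il1r2 and Il18bp) and 1 below (Il1a), with 7.29% and 3.65%, and Il1rl1, Il1rn and Il1r2 were counted only through the ungated cells. Without shared barcodes 3 of 6 were above there (Il1b, Il1rn and Il18bp), with 11.9% of all genes, and 1 below (Il1a), with 5.18%. Il1rl1 and Il1r2 then had too few UMIs to be counted, and Il1rn and Il18bp were counted only through the ungated cells. Between granulocytes and monocytes, 2 of 4 were higher in granulocytes (Il1a and Il1b), with 14.5% of all genes, and 0 lower, with 41.4%, and Il1a was counted only through the granulocytes.

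Within microglia, cells that expressed a further program were compared with the 31304 cells that met none. Cells in an interferon response (Ifit1, Isg15 and others, 611 cells) held Il1b at 303 CPM against 119.5, a ratio of 2.53 (2.34 to 2.74), higher in 6 of 6 suffixes. The size of the difference varied over suffixes, which the interval does not cover. Without shared barcodes, suffix 5, with 175 of these cells, gave 283 against 209 CPM, and suffix 1, with 36, gave 354 against 110. The interferon cells held Il18bp at 18.6 against 2.77, 6.71 times (4.67 to 9.44), again in 6 of 6. Their Il1rn was 12.1 times as high (5.75 to 23.9), from 12 UMIs, in 4 of 6 suffixes. Il18 was 1.48 times as high (1.21 to 1.79) in 6 of 6 suffixes. Il1a, at 1.21 times, and Nlrp3, at 0.963 times, stayed nearer to 1. Without shared barcodes the ratios were 2.48 for Il1b, 7.24 for Il18bp, 13.9 for Il1rn and 1.52 for Il18. Of 6 members counted, 3 were at least 2-fold higher, with 4.21% of all genes, and 0 lower, with 1.57%. Il1rn and Il18bp reached 10 UMIs only through these cells and could be counted only as higher.

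Cells with MHC class II genes (489 cells, 314 of them in suffix 1) had more Il18bp than cells with no program. They held 82 Il18bp UMIs, at 42.9 CPM (34.1 to 53.3), 15.5 times the cells with no program (11.9 to 20.1). Il18bp was higher in 4 of the 5 suffixes with enough cells. The median of the suffix levels was 17.3 CPM, against 19.9 in interferon cells, so the order of these 2 programs was not the same in pooled cells and over suffixes. The median of the suffix ratios was 6.59, and without suffix 1 the pooled ratio was 10.4. Without shared barcodes, it was 18.3, higher in 3 of 3 suffixes. Il1b was 2.09 times as high (1.90 to 2.29) and Il1rn 11.4 times (5.05 to 23.5, 10 UMIs), each higher in 4 of 5 suffixes. Without shared barcodes Il1b was 2.19 and Il1rn 12.9 times as high, each in 3 of 3 suffixes. In all cells 3 of 6 members were at least 2-fold higher, with 1.7% of all genes, and 0 lower, with 1.8%. The same limit on Il1rn and Il18bp holds here.

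Cells with lipid and phagocyte genes (Lpl, Spp1, Fam20c and others, 954 cells) had more Il1rn than cells with no program. Their 35 Il1rn UMIs gave 11.6 CPM (8.11 to 16.2), 25.4 times the cells with no program (15.5 to 41.6), higher in 6 of 6 suffixes. Among barcodes with their own sequence it was 26.6 times, higher in 5 of 6 suffixes. Shared barcodes made up 53.9% of these cells, and several other values moved without them. Il18bp was 3.85 times as high (2.57 to 5.59) in all cells and 2.12 times (0.997 to 4.001) without shared barcodes. Il1b was 1.83 times as high (1.68 to 1.98) in 3 of 6 suffixes, and 2.30 times in 5 of 6 without them. Il1a was 0.813 times (0.779 to 0.847) and then 0.967 times (0.924 to 1.01). Of 6 members, 2 were at least 2-fold higher, with 4.5% of all genes, and 0 lower, with 2.49%, and both were again counted only through these cells. Without shared barcodes 3 of 6 were higher (Il1b, Il1rn and Il18bp), with 4.06% of all genes, and 0 lower, with 2.52%. There too Il1rn and Il18bp were counted only through these cells.

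Cycling microglia (707 cells) had no member past 2-fold among those with enough UMIs to be counted. Il18 was lower, at 22.2 against 35.2 CPM (ratio 0.632, 0.483 to 0.813), in 6 of 6 suffixes, and in 5 of 6 among barcodes with their own sequence. Il1a was 1.25 times as high, Il1b 1.17 times and Nlrp3 1.03 times, and 0 of 4 counted members passed 2-fold, with 9.2% of all genes higher and 1.31% lower. Of the members with too few UMIs to be counted, Il1rn had 4 UMIs (ratio 3.13, 0.808 to 8.72) and Il1r2 had none.

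**Figure D3:**
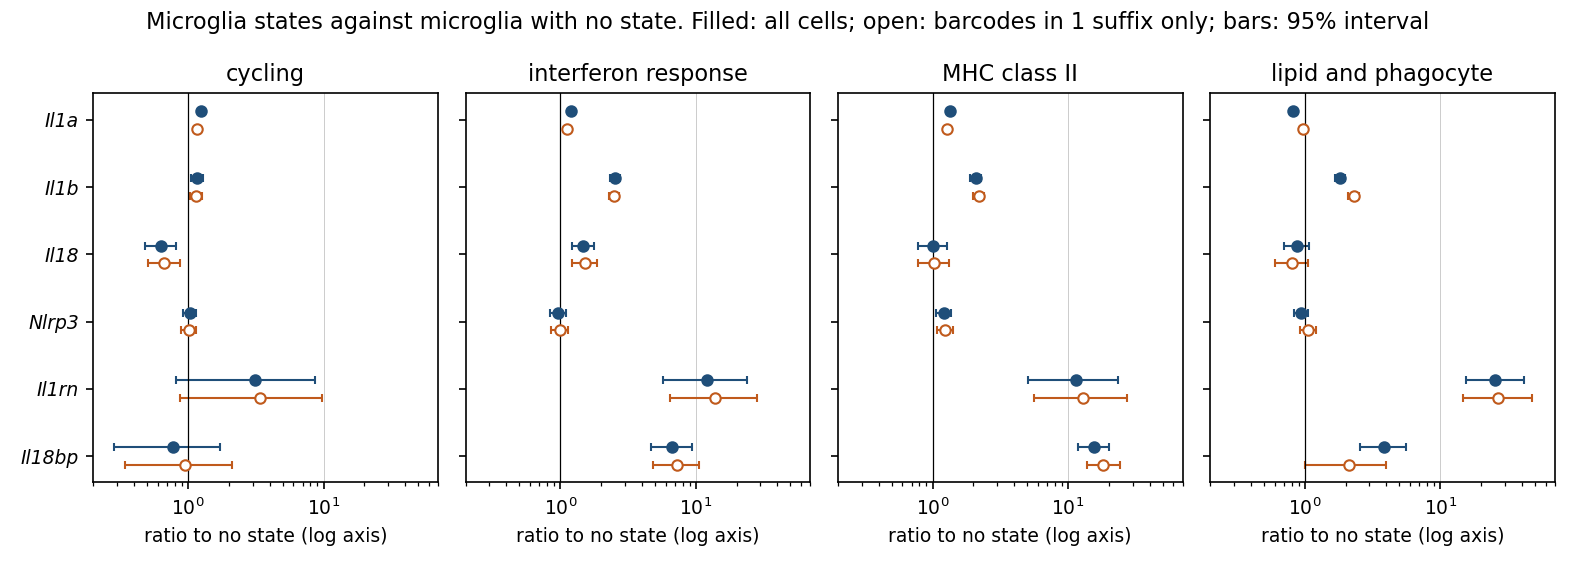
Ratio of the level in each microglial program to that in microglia with none, on a log axis, for 6 genes, with exact 95% intervals, for all cells (filled) and for barcodes found in 1 suffix (open). Il1rn and Il18bp stand farthest from 1 in 3 of the 4 programs, led by Il1rn in lipid and phagocyte cells at 25.4 and Il18bp in MHC class II cells at 15.5, while Nlrp3 stays near 1.

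Microglia were next ranked within each suffix by the share of their UMIs on a list of NF-κB targets and chemokines (Ccl3, Ccl4, Tnf, Nfkbia and 6 others, none of them a member). The top quartile of 8587 cells had Il1b at 245 CPM and the bottom quartile at 43.6, a ratio of 5.63 (5.23 to 6.07). The ratio ran from 2.89 to 6.69 over 6 suffixes and was 5.82 among barcodes with their own sequence, from 3.16 to 7.73. Il1a was at 1171 against 678 (ratio 1.73, 1.69 to 1.76), and Nlrp3 at 121 against 88.8 (1.37, 1.29 to 1.45), each in 6 of 6 suffixes. Il18 went the other way, at 30.9 in the top against 37.9 in the bottom quartile (0.814, 0.734 to 0.903), lower in 5 of 6 suffixes. Il1rn had 70 UMIs in the top and 6 in the bottom quartile, 7.84 times (3.43 to 22.1), and Il18bp was 2.46 times as high in 5 of 6 suffixes. Without shared barcodes the ratios were 1.57 for Il1a, 1.40 for Nlrp3, 0.863 for Il18, 11.7 for Il1rn and 3.71 for Il18bp. Among 8 members with at least 100 UMIs in the gate, 3 were at least 2-fold higher (Il1b, Il1rn and Il18bp), with 2.79% of all genes, and 0 were 2-fold lower, with 0.428%. Cells of the top quartile had a median of 3067 UMIs and those of the bottom quartile 1842, and the part of depth was not tested beyond the thinned repeat, in which the Il1b ratio was 4.31.

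Immediate early genes (Fos, Jun, Egr1 and 5 others), which also rise when cells are dissociated, gave another picture. Il1b was lower in the top than in the bottom quartile of this list, at 91.6 against 204 CPM, a ratio of 0.448 (0.425 to 0.473), in 6 of 6 suffixes. With barcodes of 1 suffix only, the ratio was 0.455. Il18bp (0.314, 0.231 to 0.423) and Il1rn (5 against 55 UMIs, 0.081) were lower too. Il1a (1.03, 1.01 to 1.05), Nlrp3 (1.08) and Il18 (0.943) lay nearer to 1. Without shared barcodes Il18bp was at 0.383 and Il1rn at 0.088, and Il1a lay on the other side of 1, at 0.894 (0.875 to 0.912). The top quartile had a median of 2672 UMIs and the bottom quartile 1734. Without shared barcodes these medians were 2813 and 3470. Of 8 members, 3 were at least 2-fold lower, with 4.06% of all genes, and 0 were 2-fold higher, with 0.857%.

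Microglia with at least 2 Il1b UMIs (2190 cells) were also set beside those with none. Il1a was at 1377 against 862 CPM, 1.60 times as high (1.57 to 1.63), and Nlrp3 at 132 against 102, 1.30 times (1.22 to 1.38), both in 6 of 6 suffixes. Il18 was at 28.7 against 36.3, or 0.790 times (0.691 to 0.900), lower in 6 of 6. Il1rn was 5.65 times as high (3.64 to 8.68), from 38 UMIs, in 5 of 6 suffixes. Il18bp was 1.87 times as high (1.40 to 2.45) but in only 3 of 6 suffixes. In cells with their own barcode sequence, the values were 1.47, 1.29, 0.847, 7.03 and 2.27. Il1rl1 had a ratio of 0.986 (0.548 to 1.66). Of 7 members, 1 was at least 2-fold higher (Il1rn), with 1.65% of all genes, and 0 lower, with 1.21%. Without shared barcodes Il1rn had too few UMIs to be counted and Il18bp was the 1 of 6, with 1.75% of all genes higher and 1.09% lower. The carriers had more UMIs per cell, with a median of 3815.5 against 2474.

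**Figure D4:**
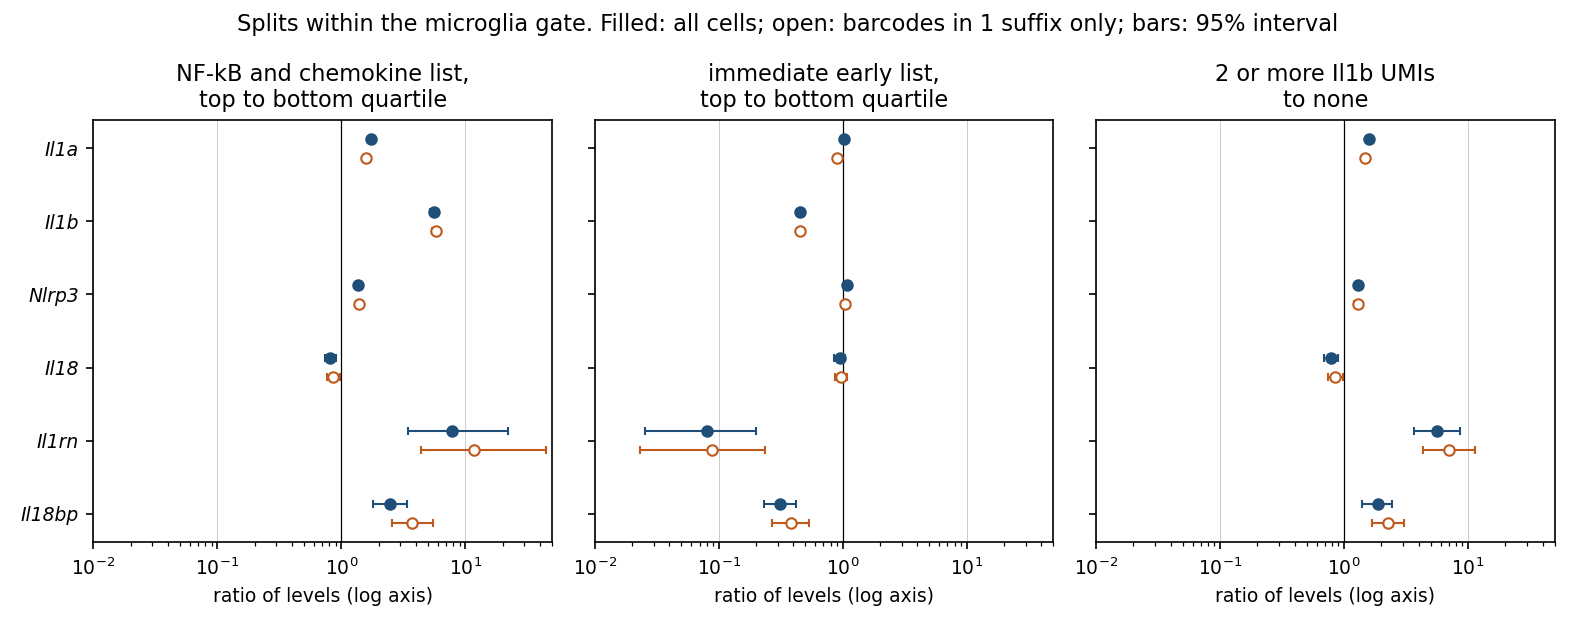
Ratio of levels within the microglia gate, on a log axis with exact 95% intervals, for the top against the bottom quartile of the NF-κB and chemokine list (left), of the immediate early list (middle) and for cells with at least 2 Il1b UMIs against none (right), for all cells (filled) and barcodes found in 1 suffix (open). Il1b is 5.63 times as high at the top of the first list and 0.448 times at the top of the second, and Il18 lies below 1 in the left and right panels.

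The rest of the family and pathway was read from a list of 26 genes. Of these, 21 had a UMI in microglia, 18 in monocytes, 16 in NK cells, 12 in granulocytes and 11 in choroid plexus cells. These gates held 89572652, 1188838, 331270, 116026 and 423920 UMIs in the same order. Having any UMI depends on that total, and the share of all genes with a UMI was not computed. The counts therefore do not rank the gates. The IL-1 receptor gene Il1r1 was rare in microglia, at 1.02 CPM, and had no UMI in monocytes, granulocytes and NK cells. Those counts of 0 allow up to 2.52, 25.9 and 9.06 CPM, each above the microglial level, so they could not be told from it. The IL-18 receptor genes were held by NK cells, with Il18r1 at 187 (143 to 240) and Il18rap at 169 (128 to 220) CPM against 0.40 and 0.87 in microglia. Sigirr, an inhibitory receptor of the family, was at 33.2 in NK cells and 21.03 in monocytes against 1.496 in microglia. Of the ligands of the IL-36 branch and its relatives, Il1f9 had 15 UMIs in granulocytes, at 129 CPM (72.4 to 213), and Il1f5, Il1f6, Il1f8 and Il1f10 had none in any of these 5 gates. Their receptor gene Il1rl2 was at 13.2 in microglia and 5.89 in monocytes.

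Signalling genes were shared more widely. Myd88, the adaptor of these receptors, was at 235 CPM in monocytes (208 to 264), 189.6 in granulocytes and 61.7 in microglia. Irak3, a brake on this signalling, was at 23.6 in monocytes against 2.11 in microglia, whereas Irak2 was at 30.3 against 82.1. Of the inflammasome genes, Pycard, the adaptor, was at 249 in monocytes and 197 in microglia, and Casp1, which cleaves the IL-1β and IL-18 precursors, at 98.4 and 58.9. Gsdmd, the pore former, was at 75.7 and 103, Nek7, a partner of NLRP3, at 53.8 and 101, and Aim2, a DNA sensor, at 21.03 and 60.7. Nlrc4 had 8 UMIs in monocytes, at 6.73, against 0.078 in microglia. Without shared barcodes, NK cells held Il18r1 at 187 and Il18rap at 178 CPM, granulocytes held Il1f9 at 133, and monocytes held Myd88 at 230.2 and Irak3 at 24.1.

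Genes with the pattern most like a member were named by the Pearson correlation of log2(CPM + 10) over 10 gated groups and programs, among 8827 genes. The groups share free RNA and depth, and the values are descriptions. For Il1a these were Cdk5r1 (0.991), Plxdc2 and Adamts1, and for Nlrp3 Hebp1 (0.986), Lyl1 and Trib1. For Il1b they were Gm26545 (0.985), Arl13b and C5ar1, and for Il1rn Rab32 (0.975), Hp and Wfdc17. Il1rap was nearest to Wfdc21 (0.973), a check gene of the granulocyte gate, then Atp2c1 and Msra. Il18 was nearest to Nmrk1 (0.934), Fam53c and Sap30, and Il18bp, with the weakest likeness, to Tesk2 (0.793), Grina and Chst15.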

How the data were processed

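CD45+ cells of 6 mice were profiled with 10x Chromium 3′ v2 chemistry. The authors aligned reads to mm10 with Cell Ranger 3.1 (STAR), aggregated 6 libraries sequenced in 3 batches that no label ties to a suffix, and deposited 1 matrix of raw UMI counts, before normalization. Doublets had been excluded at the sort and, by the study's limit, above 2500 genes. No caller was run. The study's own limits were applied (more than 200 genes, no more than 2500, mitochondrial UMIs below 5%), and left a number of barcodes that differs from the study's. Levels are CPM, summed UMIs per 1000000 UMIs of a group (exact Poisson intervals). Shares have exact Clopper-Pearson intervals and ratios exact conditional intervals. A limit for a count of 0 is that of 3 counts. All intervals and limits cover counting error at 95% only. A gate needed at least 3 list genes, more than any other list, and, outside microglia, under 0.5% of UMIs on the microglia list. Groups needed 50 cells and suffix values 20. Shares were repeated after thinning each cell to 500 UMIs. All passing cells held at least that many. Total UMIs per suffix were 9745192 to 24393841. Genes named were the members, the pathway list, gate and check genes, and the 3 genes most like each member with at least 200 UMIs, and the genes of ungated Il1rn cells were chosen after values were seen. The members and lists were chosen with earlier results of these data known. Promoters came from RefSeq (GRCm38.p6), where 10 of 10 members matched, and positions from GENCODE M21. Scripts used Python 3.11.15, numpy 2.4.6, scipy 1.17.1 and pandas 2.3.3 and were tested on simulated data. Alternatives were other limits on genes, mitochondria, UMIs and list genes, thinning before gating, medians over suffixes, leaving out each suffix, other splits and, chosen after seeing the data, leaving out shared barcodes. One scaling of levels is not reported here.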

Additional observations from a re-analysis of the deposited data

How the results depend on the processing

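No paired analysis was possible because the labels do not tie the barcode suffixes to the numbered mice and no test was run. Of 363 values of 29 results under other settings, 281 moved by less than the counting interval of the reported value, and each of 266 ratios stayed on the same side of 1. The Il1a ratio by the immediate early list, 1.03 and then 0.894 without shared barcodes, was not among the 29 results. The cause of the moves was not tested. With no upper limit on genes, Il1a in monocytes was 0.037 times microglia, Il1b in granulocytes 16.1 times and in monocytes 2.61 times, and Il1a beside Il1b 1.45. With at least 4 list genes Il1b in granulocytes was 16.8 times microglia, and with a microglia list limit of 0.2%, 30.3 times. Thinned to 1000 UMIs before gating, the ratios in monocytes were 0.060 for Il1a, 5.23 for Il1b and 112 for Il1rn, Il18bp in MHC class II cells was 11.2, Il1b by the NF-κB quartiles 4.31 and Il1a beside Il1b 1.88. As medians over suffixes, Il1b in monocytes was 1.80, Il1rn 53.3, Il18bp in MHC class II cells 6.59 and Il1a beside Il1b 1.53. A split at the median in place of quartiles gave 3.25 for Il1b, at least 1 Il1b UMI gave 1.41 for Il1a, and leaving out shared barcodes, an alternative chosen after seeing the data, gave 1.47. With 1 suffix left out at a time, the range was 0.021 to 0.028 for Il1a and 2.68 to 3.67 for Il1b in monocytes, 17.7 to 27.7 for Il1b in granulocytes, 64.6 to 92.1 for Il1rn in monocytes, 10.4 to 17.7 for Il18bp, 5.41 to 5.86 for Il1b by quartiles, 1.54 to 1.63 for Il1a beside Il1b, 1.66 to 1.94 for microglial Il1rl1 and 21.1% to 36.8% for ILC2. Depth limits Il33, with 1 microglial UMI, and Il1rl1, Il1rap, Il1r2 and Il1rn, of which at most 13 microglia held over 1 UMI.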

Other observations

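Barcodes that the filters left out carried the same members. The 893 barcodes with over 2500 genes (median 9250 UMIs), which the study took as doublets, held Il1a at 834 CPM, Il1b at 244, Nlrp3 at 102 and Il1rl1 at 3.02. The 760 barcodes with at most 2500 genes and a mitochondrial share of 5% or more (median 1052 UMIs) held Il1a at 572, Il1b at 232, Nlrp3 at 81.8 and Il1rn at 17.1. Passing barcodes held 887.9, 143, 103 and, for Il1rn, 3.59.

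Ungated cells differed by how many microglia list genes they held. In a split chosen after seeing the data, the 316 ungated cells with none held Il1rn at 179 CPM, Il1b at 359 and Il1a at 168. The 901 with 1 such gene held Il1rn at 28.2, Il1b at 224 and Il1a at 351. The 2381 with 2 such genes held Il1rn at 7.06, Il1b at 151 and Il1a at 405. The 48 with 3 or more held Il1rn at 13.4, from 3 UMIs, Il1b at 688 and Il1a at 612. Il1b and Il1rn thus did not fall steadily with the number of these genes. Without shared barcodes, 86 cells with none held Il1rn at 347, Il1b at 575 and Il1a at 75.9. The Il1rn levels of cells with none came from 66 and, without shared barcodes, 64 UMIs, of which 1 cell held 39.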
